A study of Mus musculus with 23 samples.

Results

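The genes described here encode the intermediate filaments of skeletal muscle and the proteins that tie them together. They are Des (desmin), Synm (synemin), Nes (nestin), Vim (vimentin), Plec (plectin), Lmna (lamin A/C), Krt8 (keratin 8) and Krt18 (keratin 18), chosen by symbol. All 8 were found among the 54446 genes of a raw count table and among the 15624 genes of a second table. All 8 passed the filter on low counts that was applied to the count table. Krt8 and Krt18 were included because they had been seen changed in these same data. Their levels are therefore a description in every comparison, with no test, and only the other 6 genes were tested. Those 6 and the gene lists below were also chosen with earlier results of these data known, which limits how their calls can be read.

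Intermediate filaments are rope-like polymers of coiled-coil proteins. In a muscle fibre, desmin filaments surround the Z-discs and link neighbouring myofibrils to each other, to the nuclei and to the costameres of the cell membrane. Synemin and nestin are large partners that build into such filaments with desmin or vimentin, plectin is the crosslinker that anchors filaments, and lamin A/C forms the lamina under the nuclear envelope. Keratin 8 and keratin 18 are the obligate pair of simple epithelia, and vimentin is the main filament of fibroblasts, endothelium and leukocytes.

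RNA was sequenced from mouse skeletal muscle, in a study of how transcription factors control proteasome genes. The count table held 3 libraries of denervated WT muscle, 3 of denervated muscle of PAX4 KO mice and 3 of innervated WT muscle (WT Con Innervated). The second table held muscle of NRF1 KD mice (NRF1PAL in the genotype label, 3 libraries), of NRF1-PAX4 double KD mice (3 libraries) and of WT con mice (2 libraries, numbered 2 and 3). Every group other than innervated WT had been denervated for 10 d, the WT con group included, so the second table holds no innervated muscle. The labels used here give no age, sex, muscle, Cre or promoter, and no innervated PAX4 KO group was analysed here. Nothing in them ties libraries to separate animals, and p-values therefore measure library-to-library spread, part of which may be technical.

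The count table summed to 21716216 to 42821396 counts per library, and 23740769 to 30165765 reads per library were recovered from the second table. All 12 myofibre markers were detected in every group, with summed levels of 69252 to 83492 CPM (counts scaled to library size) in denervated WT, 55095 to 73703 in PAX4 KO and 99002 to 124780 in innervated WT muscle. The labels could not be checked on the targeted genes. No read of Pax4 was counted (0 in each of 9 libraries, which by the limit of 3 counts allows up to 0.0701 to 0.138 CPM, for counting error only). Nrf1 was at 499, 476 and 524 normalised counts in NRF1 KD libraries 1 to 3, 450, 427 and 454 in double KD libraries and 488 and 444 in WT con libraries, so the NRF1 KD libraries held no less of its mRNA. Innervated WT library 2 stands apart from the other innervated libraries. Its Chrng, the fetal subunit of the acetylcholine receptor, was at 16.0 CPM, against 0.197 and 0.105 CPM in innervated libraries 1 and 3, and Myog, a myogenic factor that denervation induces, was at 27.3 CPM, against 3.84 and 6.28 CPM. Both were named after their values were seen. Denervated WT library 1 had the highest macrophage marker sum of its group. Results that rest on these libraries are given with and without them.

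Denervation of WT muscle came with more desmin and lamin A/C mRNA and with far less synemin mRNA. Of the 6 genes tested, Des and Lmna rose, Synm fell, and Vim, Nes and Plec did not pass the test. Across all genes tested 32.3% were called in this comparison (edgeR quasi-likelihood test, adjusted p under 0.05), 16.5% higher and 15.8% lower, so 3 of 6 is a small count to read against that share. The libraries of the 2 groups did not overlap for 6 of the 8 genes, against 46.6% of all genes. Those 6 include Krt8 and Krt18, which were chosen as changed. Only Des, Synm, Plec and Lmna can be set against that share. The median log2 fold change of the 6 genes was 0.37, beside 0.019 over all 16146 genes tested. In bulk muscle, fewer cells of a type and less RNA per cell cannot be told apart.

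Des is the muscle filament itself (chromosome 1, 75360329 to 75368579, plus strand, GRCm38, as are all gene coordinates here). It stood at 4394, 5204 and 6613 CPM in denervated WT libraries 1 to 3, against 2331, 2884 and 2325 CPM in innervated WT libraries. Every denervated library was above every innervated one, and innervated library 2 was the highest of its group. The log2 fold change was 1.10 ± 0.20 (SE), with an edgeR adjusted p of 0.0029. In PAX4 KO muscle Des was at 4539, 4502 and 6069 CPM, again above every innervated library (log2 fold change 1.00 ± 0.20, adjusted p = 0.00369).

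Synm, the partner of desmin (chromosome 7, 67730160 to 67759742, minus strand), went the other way. It had 91.2, 115 and 73.3 CPM in denervated WT, against 589, 329 and 540 CPM in innervated WT muscle. The groups lie far apart, and the lowest innervated value is that of library 2. Its log2 fold change was -2.38 ± 0.24, a 5.21-fold lower mean level, with an adjusted p of 0.000173. PAX4 KO libraries held 56.8, 57.0 and 69.6 CPM of Synm, 7.95-fold below innervated WT (log2 fold change -2.99 ± 0.24, adjusted p = 4.87e-05). Taken per kilobase of transcript, Synm stood at 0.429% to 0.859% of Des in denervated WT libraries and 0.444% to 0.491% in PAX4 KO libraries, against 4.42% to 9.79% in innervated WT libraries.

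Lmna codes for the A-type lamins, the nuclear members of the family (chromosome 3, 88480147 to 88509956, minus strand). Its levels were 197, 228 and 330 CPM in denervated WT, against 56.8, 93.3 and 57.6 CPM in innervated WT muscle. No library of either group reached into the other, and innervated library 2 was again the one nearest to denervated muscle. Lmna rose by a log2 fold change of 1.86 ± 0.25 (adjusted p = 0.00065), and in PAX4 KO muscle, at 208, 222 and 297 CPM, by 1.81 ± 0.25 (adjusted p = 0.000543). Of the B-type lamins, Lmnb2 was called higher in denervated WT muscle (log2 fold change 0.99 ± 0.23, adjusted p = 0.0083), and Lmnb1, named after its values were seen, was not called (-0.30 ± 0.20, adjusted p = 0.296).

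The remaining 3 tested genes were not called between denervated and innervated WT muscle with all libraries. Nes, a filament of regenerating fibres and of the neuromuscular junction (chromosome 3, 87971078 to 87980451, plus strand), was at 121, 77.3 and 74.4 CPM in denervated WT and at 62.2, 81.2 and 52.9 CPM in innervated WT muscle. The groups overlapped through innervated library 2, and the log2 fold change of 0.47 ± 0.21 had an adjusted p of 0.116. Without innervated library 2 it was 0.66, with an adjusted p of 0.0446, and Nes was then called. Without denervated library 1 it was 0.21 (adjusted p = 0.421) and without both of these libraries 0.40 (adjusted p = 0.0783). Vim (chromosome 2, 13573927 to 13582826, plus strand) was at 324, 180 and 207 CPM in denervated WT and at 174, 260 and 158 CPM in innervated WT muscle. Those values overlapped, with a log2 fold change of 0.26 ± 0.25 (adjusted p = 0.461), and it was -0.029 without denervated library 1, the highest. Plec (chromosome 15, 76170974 to 76232574, minus strand) was at 513, 434 and 469 CPM in denervated WT, against 546, 564 and 663 CPM in innervated WT muscle. All denervated values were lower, yet the log2 fold change of -0.32 ± 0.17 had an adjusted p of 0.181.

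PAX4 KO muscle, itself denervated, was also set against innervated WT muscle, where genotype and denervation cannot be told apart. Of the 6 tested, Des, Vim, Nes and Lmna were higher, Synm was lower and Plec was not called. Across all genes 40.0% were called in that comparison (21.8% higher and 18.2% lower). Libraries did not overlap for 7 of 8 genes, beside 52.3% of all genes, and those 7 include Krt8 and Krt18, chosen as changed. Vim was at 334, 486 and 403 CPM in PAX4 KO muscle, above all innervated libraries (log2 fold change 1.04 ± 0.26, adjusted p = 0.00899). Nes, at 111, 142 and 115 CPM, was also above every innervated library (log2 fold change 0.90 ± 0.21, adjusted p = 0.0077). Vim and Nes, not called in denervated against innervated WT, were also not called in PAX4 KO against denervated WT (edgeR adjusted p = 0.302 and 0.416). Their calls here therefore do not show a difference between PAX4 KO and denervated WT. The denervated WT and PAX4 KO comparisons share the innervated libraries, so their agreement is no separate evidence.

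**Figure D1:**
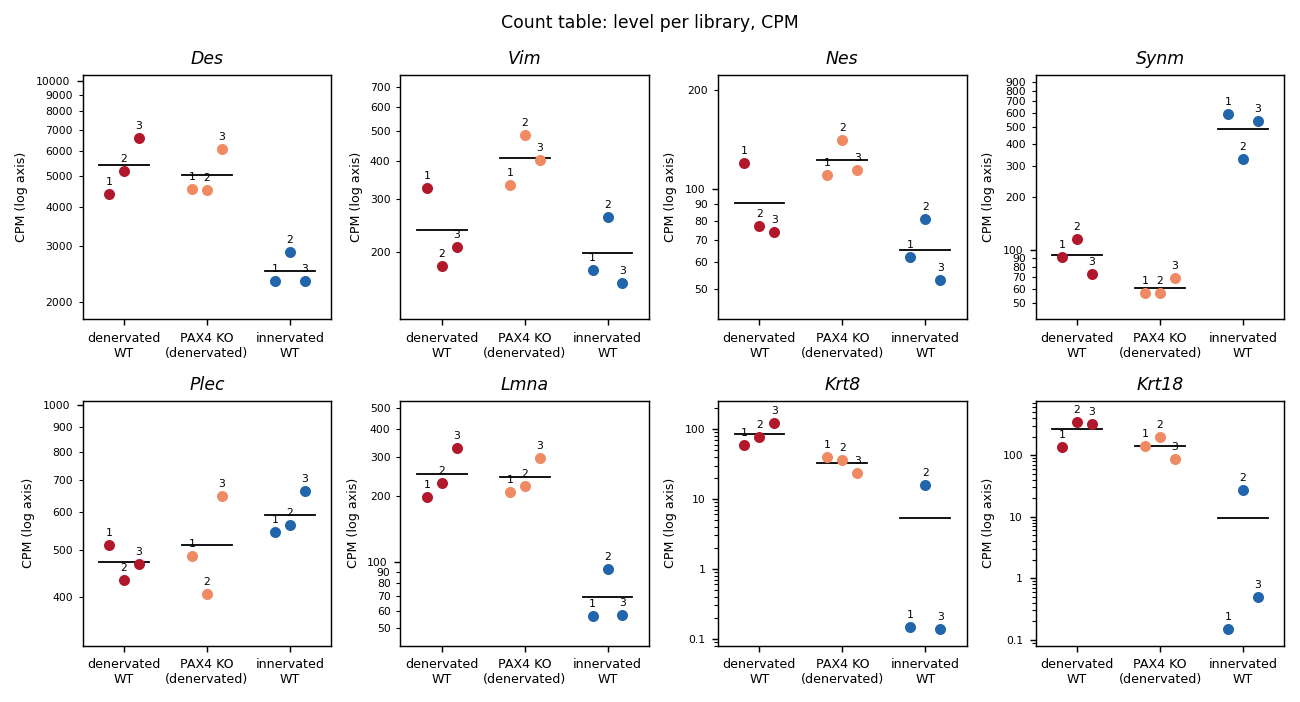
Level of each gene in every library of the count table, in CPM on a log axis, with denervated WT, PAX4 KO and innervated WT from left to right. Points are libraries with their number, lines are group means, and Krt8 and Krt18 are at most 0.488 CPM in innervated libraries 1 and 3 but 15.9 and 27.6 CPM in innervated library 2.

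The keratin pair was nearly silent in 2 of the 3 innervated libraries and abundant in all denervated ones. The genes are neighbours on chromosome 15: Krt8 lies at 101996698 to 102004482 on the minus strand and Krt18 at 102028180 to 102032027 on the plus strand, so they point away from each other with 23698 bases between their 5′ ends. Their promoters are printed from RefSeq (GRCm38.p6), since the pair moved together, beside those of Des and Synm, which moved in opposite directions. Each runs from 250 bases before to 50 bases after the annotated start, 5′ to 3′ on the gene's strand. Capitals mark each match to CANNTG, the general form of the E-box. Sites of myogenic factors such as Myog have this form, but a match need not be one of them. The motif was searched on both strands and reads the same on each.
Krt8: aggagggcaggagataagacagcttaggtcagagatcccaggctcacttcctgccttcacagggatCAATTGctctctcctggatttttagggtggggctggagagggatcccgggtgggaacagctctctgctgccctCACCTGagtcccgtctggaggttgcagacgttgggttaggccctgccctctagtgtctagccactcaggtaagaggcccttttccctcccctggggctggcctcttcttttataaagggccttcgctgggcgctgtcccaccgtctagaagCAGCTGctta
Krt18: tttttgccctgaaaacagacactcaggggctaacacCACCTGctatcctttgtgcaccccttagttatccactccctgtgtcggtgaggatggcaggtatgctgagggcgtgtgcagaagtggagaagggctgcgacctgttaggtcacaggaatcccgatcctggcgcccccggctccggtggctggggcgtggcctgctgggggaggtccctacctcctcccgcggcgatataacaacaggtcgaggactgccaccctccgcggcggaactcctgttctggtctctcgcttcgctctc
Des: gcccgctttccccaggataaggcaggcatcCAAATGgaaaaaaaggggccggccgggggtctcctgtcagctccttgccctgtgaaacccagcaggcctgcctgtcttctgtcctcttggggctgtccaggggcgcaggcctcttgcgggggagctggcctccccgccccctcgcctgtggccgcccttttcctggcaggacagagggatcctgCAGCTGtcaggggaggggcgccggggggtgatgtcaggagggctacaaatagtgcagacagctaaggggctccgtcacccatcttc
Synm: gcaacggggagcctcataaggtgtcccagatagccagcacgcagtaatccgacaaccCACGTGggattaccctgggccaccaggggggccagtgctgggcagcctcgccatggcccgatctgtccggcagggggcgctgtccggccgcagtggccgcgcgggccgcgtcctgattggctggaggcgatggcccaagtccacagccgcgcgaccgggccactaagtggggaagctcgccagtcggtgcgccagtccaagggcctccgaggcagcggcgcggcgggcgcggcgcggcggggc

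These windows span chr15:102004293-102004592 on the minus strand for Krt8, chr15:102027966-102028265 on the plus strand for Krt18, chr1:75360042-75360341 on the plus strand for Des and chr7:67759693-67759992 on the minus strand for Synm. Counted with the start as position 0, an E-box began at -184, -111 and 40 in Krt8, at -214 in Krt18, at -220 and -36 in Des and at -193 in Synm. None lay in the windows of Vim, Nes or Lmna, and Plec was not matched. Of 32851 promoters of this length, 72.3% held at least 1 E-box, so its presence is common. A match is a string of letters, not a bound site.

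Krt8 was at 59.3, 76.1 and 120 CPM in denervated WT and 40.1, 35.7 and 23.7 CPM in PAX4 KO muscle, against 0.148, 15.9 and 0.139 CPM in innervated WT muscle. In reads, the innervated libraries held 3, 581 and 4. Krt18 was at 138, 348 and 322 CPM in denervated WT and 144, 198 and 86.4 CPM in PAX4 KO muscle, against 0.148, 27.6 and 0.488 CPM in innervated WT muscle, or 3, 1008 and 14 reads. No denervated library overlapped an innervated one for either gene. Innervated library 2 was 111-fold above the mean of innervated libraries 1 and 3 for Krt8 and 86.9-fold above it for Krt18. In the same library Lmna was 1.63-fold, Vim 1.56-fold, Nes 1.41-fold and Des 1.24-fold above that mean, Plec was 0.933-fold and Synm 0.583-fold.

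The size of the keratin difference therefore depends on that library. With all libraries the log2 fold change of denervated WT against innervated WT was 3.90 ± 1.07 for Krt8 and 4.79 ± 1.24 for Krt18. Without innervated library 2 it was 9.19 for Krt8 and 9.61 for Krt18. Against the 7 Krt8 reads of innervated libraries 1 and 3, the mean of denervated WT was 596-fold higher (95% Poisson interval 289 to 1484, for counting error of the innervated reads only) and that of PAX4 KO 232-fold higher (113 to 577). Against their 17 Krt18 reads, denervated WT was 776-fold higher (485 to 1333) and PAX4 KO 411-fold higher (257 to 705). These intervals leave out innervated library 2 and all library-to-library spread, so they are no test of genes chosen as changed.

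Other keratins of epithelia were read beside the pair. Krt7, a keratin of simple epithelia, was at 0.340 to 0.409 CPM in denervated WT and 0.507 to 0.801 CPM in PAX4 KO, against 0.0349 to 0.0985 CPM in innervated WT muscle. It was called higher in denervated WT and in PAX4 KO against innervated WT muscle (edgeR), as was Krt80, and both are given with the related genes. Krt19, another keratin of simple epithelia, was at 0.209 to 0.602 CPM in denervated WT and 0.146 to 0.395 CPM in PAX4 KO, against 0.542 to 0.732 CPM in innervated WT muscle. Krt5, a keratin of basal epithelial cells, had 0 counts in all 9 libraries, as did Upk3b, a mesothelial marker. The 13 epithelial markers summed to 30.4 to 37.2 CPM in denervated WT and 24.2 to 31.3 CPM in PAX4 KO muscle, against 12.6 to 15.7 CPM in innervated WT muscle. Most of that sum was Trp63, a p63 factor, at a mean of 30.6 CPM in denervated WT and 9.22 CPM in innervated WT muscle. The 7 mesothelial markers summed to 1.29 to 3.27 CPM in denervated WT and 2.37 to 4.66 CPM in PAX4 KO, against 3.30 to 4.47 CPM in innervated WT muscle. The 11 satellite cell and immature fibre markers summed to 582 to 862 CPM in denervated WT and 552 to 696 CPM in PAX4 KO, against 91.5 to 193 CPM in innervated WT muscle. Their part in the keratin levels was not tested.

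Genes around the pair were also read. Within 100000 bases of the pair, 3 of 8 other genes were abundant enough to be tested. None of the 3 was called in denervated against innervated WT muscle in edgeR. The log2 fold changes were 0.14 for Eif4b (adjusted p = 0.368), -0.26 for Tns2 (adjusted p = 0.215) and 0.12 for Spryd3 (adjusted p = 0.531). The keratin genes Krt4, Krt78 and Krt79 next to Krt8 each had at most 16 reads in any library. Gm36026, annotated as a long intergenic noncoding RNA on the opposite strand, overlaps the 5′ end of Krt8 and had 0 to 7 reads per library. The counting is not known to use strand, so reads cannot be assigned between Gm36026 and Krt8. The processed pseudogene Krt8-ps had 0 or 1 read per library.

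Per kilobase, Krt18 exceeded Krt8 in every library. The ratio of Krt18 to Krt8 was 3.17, 6.23 and 3.65 in denervated WT and 4.89, 7.56 and 4.97 in PAX4 KO, against 1.36, 2.36 and 4.77 in innervated WT libraries, the first and last of which rest on few reads. The pair as a share of Des per kilobase was 8.71% to 16.4% in denervated WT and 3.61% to 10.5% in PAX4 KO, against 0.0232% to 2.87% in innervated WT muscle. Des itself made up 78.8% ± 1.31 of the summed level of the 8 genes per kilobase in denervated WT, 78.8% ± 4.02 in PAX4 KO and 78.1% ± 0.26 in innervated WT muscle (SD, n = 3 each). The share of Des was thus nearly the same in the 3 groups, while by group mean Krt18 ranked second in denervated WT and Vim ranked second in PAX4 KO and innervated WT. In denervated WT library 1 Vim, at 7.98%, was above Krt18, at 5.19%. Krt18 held 8.13% ± 2.89 in denervated WT and 4.89% ± 2.24 in PAX4 KO, against 0.54% ± 0.91 in innervated WT muscle, and Synm held 0.55% ± 0.18 and 0.37% ± 0.01, against 6.04% ± 2.26.

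**Figure D2:**
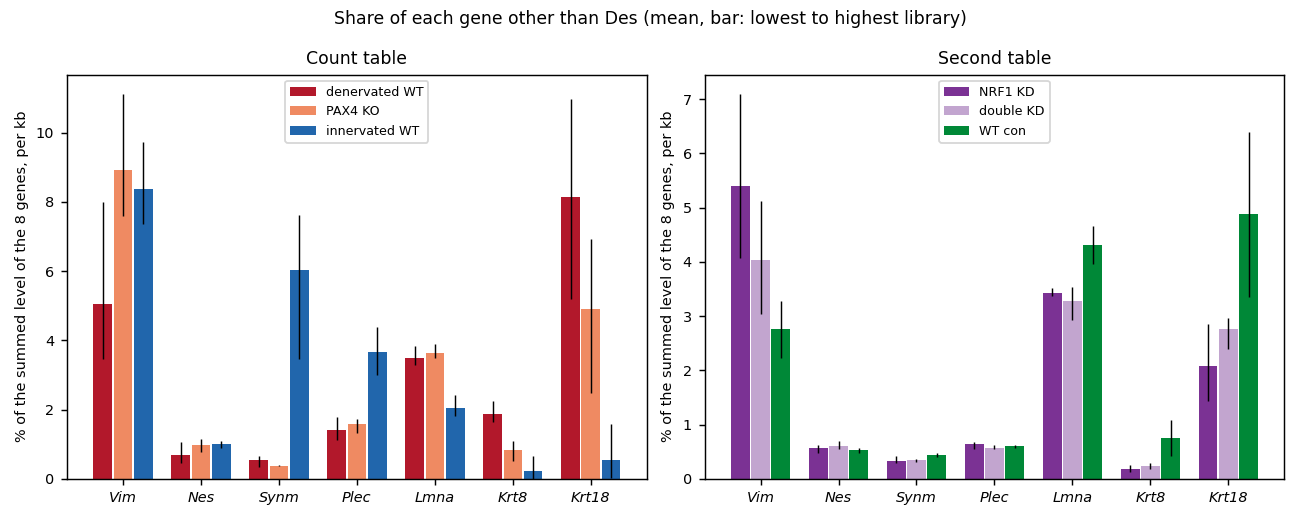
Share of each gene other than Des in the summed level of the 8 genes, per kilobase of transcript, in percent, by group, for the count table (left) and the second table (right). Bars are means and lines run from the lowest to the highest library, with Krt18 at 8.13% in denervated WT and 0.54% in innervated WT, and Synm at 0.55% and 6.04%.

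In denervated muscle of PAX4 KO against WT mice, none of the 6 tested genes passed the threshold. Over all genes 0.0186% were called (3 of 16146, edgeR), so this comparison called almost nothing anywhere. At an unadjusted p under 0.05 there were 2 of the 6, Vim and Synm, beside 12.9% of all genes, and DESeq2 called 0 of the 6. The libraries did not overlap for 3 of the 8 genes, beside 16.9% of all genes. These were Vim, Synm and Krt8, of which Krt8 was chosen as changed.

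Vim, at 334, 486 and 403 CPM in PAX4 KO and 324, 180 and 207 CPM in denervated WT, did not overlap, with denervated library 1 close below the lowest PAX4 KO library. Its log2 fold change was 0.78 ± 0.25 (adjusted p = 0.302). Without denervated library 1 it was 1.07 (adjusted p = 0.0867), still not called. Without denervated library 1 and innervated library 2, which enters the shared fit, it was also 1.07 (adjusted p = 0.0372), and with no filter on low counts 0.77 (adjusted p = 0.0285), and it was called in both. Synm, at 56.8, 57.0 and 69.6 CPM in PAX4 KO and 91.2, 115 and 73.3 CPM in denervated WT, also did not overlap (log2 fold change -0.61 ± 0.23, adjusted p = 0.331). Nes had a log2 fold change of 0.43 ± 0.21 and overlapped, with denervated library 1 inside the PAX4 KO range (adjusted p = 0.416). Without denervated library 1 it was 0.69 (edgeR adjusted p = 0.119), and without both doubted libraries also 0.69 (adjusted p = 0.0584), not called in either.

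Des, Plec and Lmna stayed close. Their log2 fold changes were -0.10 ± 0.20 for Des (adjusted p = 0.854), 0.12 ± 0.17 for Plec (adjusted p = 0.794) and -0.054 ± 0.24 for Lmna (adjusted p = 0.944), with overlapping libraries for each. The sign of each changed when single libraries were left out, so no direction is given.

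The keratins are described only. Krt8 averaged 33.1 ± 8.46 CPM in PAX4 KO and 85.2 ± 31.5 CPM in denervated WT muscle (SD, n = 3 each), a log2 fold change of -1.36 ± 0.95, with every PAX4 KO library below every denervated WT library. Krt18 averaged 143 ± 55.7 CPM in PAX4 KO and 269 ± 115 CPM in denervated WT (log2 fold change -0.92 ± 1.05). Its groups overlapped, since denervated library 1 lay below PAX4 KO libraries 1 and 2. Without denervated library 1 the log2 fold change was -1.57 for Krt8 and -1.24 for Krt18. The SEs come from the shared fit of 3 groups. The wide spread of the innervated libraries, with library 2 far above the others, therefore enters them.

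Markers of other cells were summed beside Vim. The 13 macrophage markers summed to 813 to 1431 CPM in PAX4 KO, 443 to 911 CPM in denervated WT and 123 to 372 CPM in innervated WT muscle. In PAX4 KO against denervated WT, 0 of the 13 were called and their median log2 fold change was 0.88, beside 0.0063 over all genes. In PAX4 KO against innervated WT muscle, where Vim was called, 13 of the 13 were called higher. The 12 fibroblast markers, of which Tcf21 was at 0 in all libraries, summed to 3589 to 9647 CPM in PAX4 KO, 2037 to 2873 CPM in denervated WT and 2066 to 2951 CPM in innervated WT muscle. Of the 11 tested, 0 were called in PAX4 KO against denervated WT and 5 were higher in PAX4 KO against innervated WT muscle. The 10 endothelial markers went the other way, with sums of 611 to 799 CPM in PAX4 KO and 1044 to 1146 CPM in innervated WT muscle. In PAX4 KO against innervated WT, edgeR called 9 of those 10 lower, with 5 of 8 smooth muscle and pericyte and 5 of 9 Schwann cell markers. In PAX4 KO against denervated WT, 0 of these markers were called. The part of these cells in the level of Vim was not tested.

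**Figure D3:**
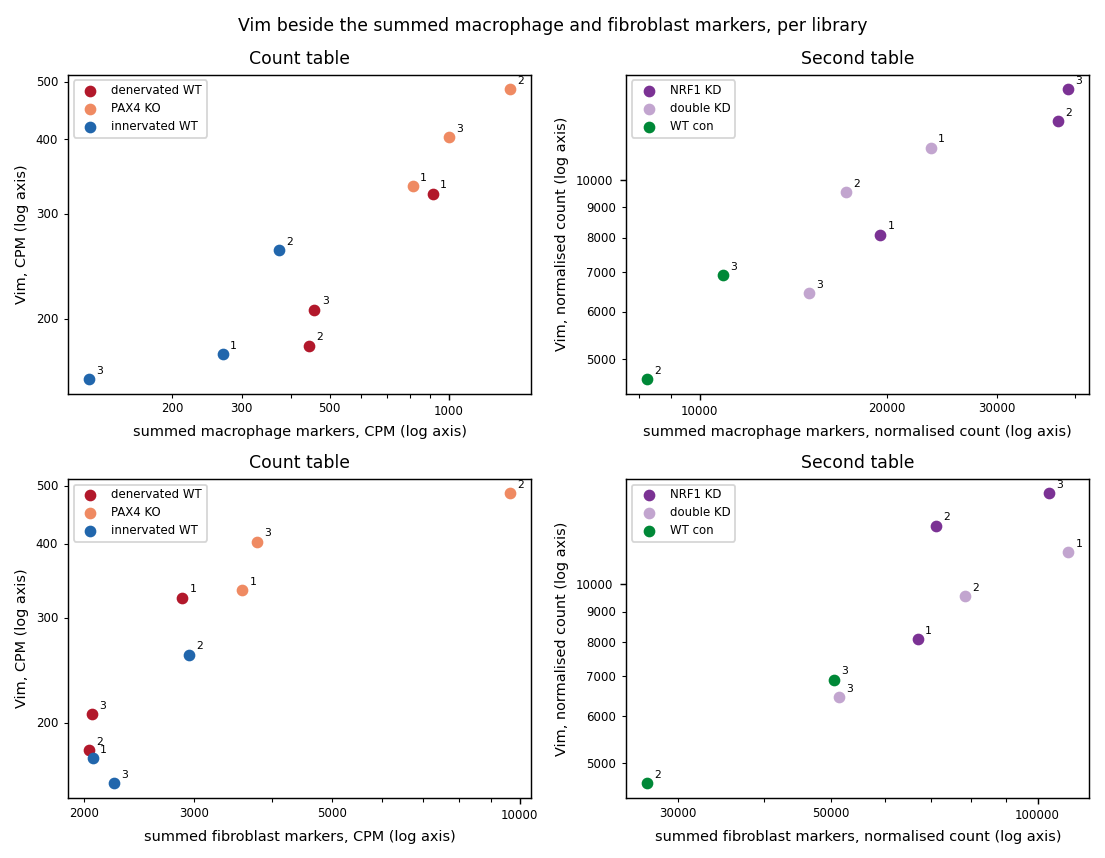
Vim against the summed macrophage markers (top) and fibroblast markers (bottom), 1 point per library with its number, in CPM for the count table (left) and normalised counts for the second table (right), all on log axes. In each table Vim was highest in the library with the highest macrophage sum, 1431 CPM in PAX4 KO and 39059 normalised counts in NRF1 KD. Other libraries did not all keep that order. Innervated WT library 2 had more Vim than denervated WT libraries 2 and 3 at a lower macrophage sum. The highest fibroblast sum came with the highest Vim in the count table but not in the second.

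In the second table, where all muscle was denervated, NRF1 KD came with more Vim and otherwise no called change among the 6 tested genes. The 1 call of 6 stands beside 11.3% of all genes called, 7.58% higher and 3.72% lower (limma on log2 of the normalised count plus 1), and 5 of the 8 genes did not overlap, beside 45.9% of all genes. With 2 WT con libraries, such a lack of overlap is frequent, and the 5 genes include Krt8 and Krt18, chosen as changed.

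Vim was at 8097, 12561 and 14237 normalised counts in NRF1 KD libraries 1 to 3, against 4626 and 6917 in WT con libraries 2 and 3. The lowest NRF1 KD value is only a little above the highest WT con value. Vim rose by a log2 fold change of 1.00 ± 0.28 (limma, adjusted p = 0.044), and the authors' deposited table gives 1.01 for it with an adjusted p of 0.0371. The call was lost without NRF1 KD library 2 (0.92, adjusted p = 0.122), without NRF1 KD library 3 (0.83, adjusted p = 0.158) and without WT con library 2 (0.71, adjusted p = 0.303). Beside it, 12 of 12 macrophage markers and 7 of 11 fibroblast markers in the table were called higher. The macrophage markers summed to 19484 to 39059 normalised counts in NRF1 KD and 14952 to 23499 in double KD, against 8233 to 10890 in WT con. The fibroblast markers summed to 66896 to 103999 in NRF1 KD and 51355 to 110866 in double KD, against 27048 to 50486 in WT con. Of 10 endothelial markers 0 were called in NRF1 KD, and their sums of 11541 to 14688 overlapped those of WT con, 8087 to 12579. The part of these cells in Vim was not tested.

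Synm and Lmna sat low in NRF1 KD without passing the test. Synm was at 2942, 2583 and 2189 normalised counts in NRF1 KD, against 3487 and 2986 in WT con (log2 fold change -0.34 ± 0.13, adjusted p = 0.114), with no overlap by a narrow margin. Lmna was at 10073, 12258 and 9706 in NRF1 KD, against 13870 and 12022 in WT con (-0.28 ± 0.12, adjusted p = 0.161), and NRF1 KD library 2 overlapped WT con. Des, at 240599, 307199 and 237584 in NRF1 KD and 251019 and 243222 in WT con, lay on both sides of WT con (0.073 ± 0.21, adjusted p = 0.864). The fold change of Nes was 0.14 ± 0.11 on the log2 scale (adjusted p = 0.427) and that of Plec 0.13 ± 0.10 (adjusted p = 0.449).

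The keratins had their lowest means in NRF1 KD. Krt8 was at 450, 275 and 275 normalised counts in NRF1 KD and 564, 407 and 422 in double KD, against 760 and 2029 in WT con. Krt18 was at 3720, 2344 and 2559 in NRF1 KD and 4302, 3818 and 4033 in double KD, against 4553 and 8823 in WT con. For both genes each knockdown library was below both WT con libraries, which themselves differed 2.67-fold for Krt8 and 1.94-fold for Krt18. The log2 fold changes against WT con were -1.94 ± 0.36 for Krt8 and -1.17 ± 0.25 for Krt18 in NRF1 KD, and -1.43 ± 0.36 for Krt8 and -0.65 ± 0.25 for Krt18 in double KD. Both comparisons use the same 2 WT con libraries. Per kilobase, Krt18 was 11.3 to 12.7 times Krt8 in NRF1 KD and 10.4 to 13.0 times in double KD, against 5.92 and 8.17 times in WT con libraries. Beside these levels, Myog was called lower in both knockdown groups, with a log2 fold change of -1.01 ± 0.11 in NRF1 KD (adjusted p = 0.00194) and -1.0 ± 0.11 in double KD (adjusted p = 0.00292), and its part was not tested. It is 1 of 10 satellite cell and immature fibre markers tested there, of which 1 was called higher and 2 lower in NRF1 KD, and 2 higher and 2 lower in double KD.

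**Figure D4:**
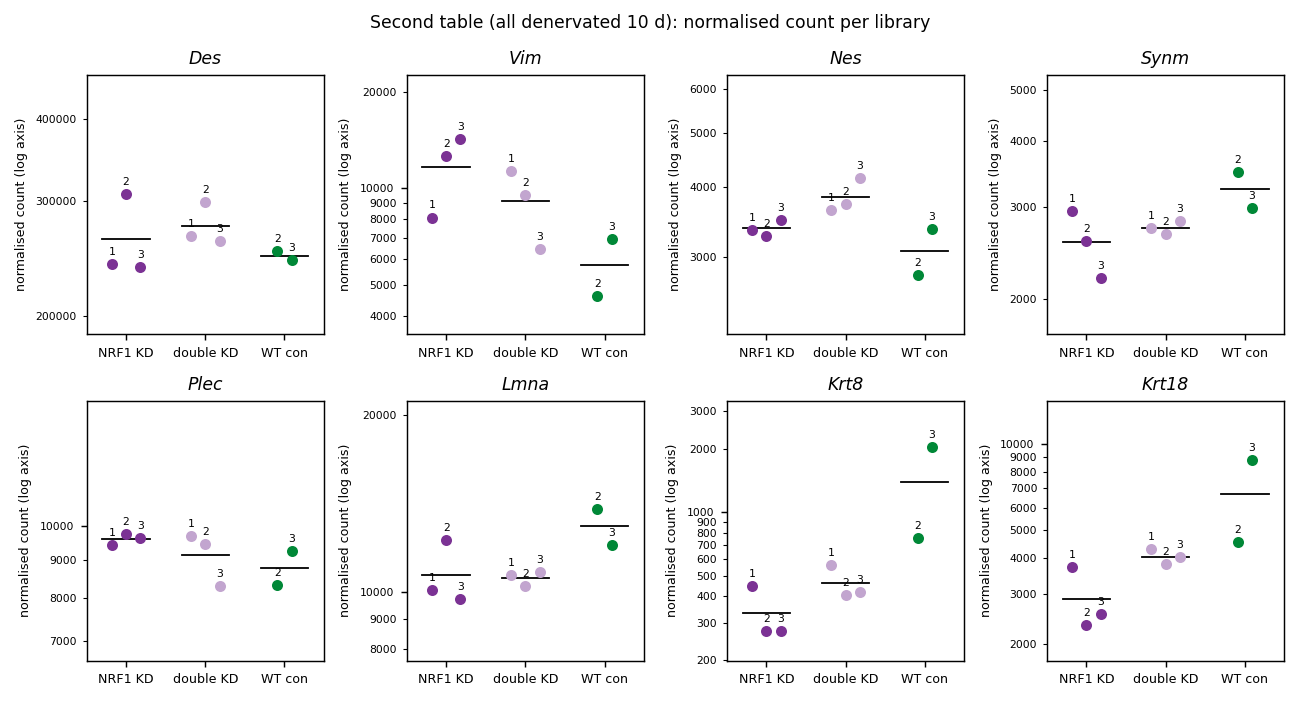
Normalised count of each gene in every library of the second table on a log axis, with NRF1 KD, double KD and WT con from left to right. Points are libraries with their number and lines are group means, and every NRF1 KD and double KD library lies below both WT con libraries for Krt8 and Krt18.

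In double KD muscle 0 of the 6 genes were called against WT con by limma, beside 4.08% of all genes, and edgeR on the recovered reads also called 0. At an unadjusted p under 0.05 there were 3, namely Nes, Lmna and Vim, beside 21.4% of all genes. Libraries did not overlap for 6 of 8 genes, beside 35.7% of all genes, and those 6 include Krt8 and Krt18, chosen as changed. Nes was at 3640, 3729 and 4157 normalised counts in double KD, against 2781 and 3366 in WT con, with every double KD library higher (log2 fold change 0.33 ± 0.11, adjusted p = 0.111). Lmna was at 10683, 10217 and 10816 in double KD, below both WT con libraries (-0.29 ± 0.12, adjusted p = 0.199). Vim was at 11337, 9545 and 6454 in double KD and overlapped WT con through library 3 (0.65 ± 0.28, adjusted p = 0.208). Synm had -0.24 ± 0.13 (adjusted p = 0.307), Des 0.15 ± 0.21 (adjusted p = 0.733) and Plec 0.056 ± 0.10 (adjusted p = 0.802).

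Between double KD and NRF1 KD, limma called 0 of the 6 genes, beside 0.134% of all genes. At an unadjusted p under 0.05 there were also 0, beside 11.2% of all genes, and edgeR called 0. The log2 fold change was -0.35 ± 0.25 for Vim (adjusted p = 0.632) and 0.18 ± 0.10 for Nes (adjusted p = 0.504). The 2 genes with no overlap were Nes and Krt18, the latter chosen as changed, beside 16.3% of all genes. Krt18 was higher in each double KD library than in any NRF1 KD library (log2 fold change 0.52 ± 0.23), and Krt8 overlapped (0.50 ± 0.32).

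**Figure D5:**
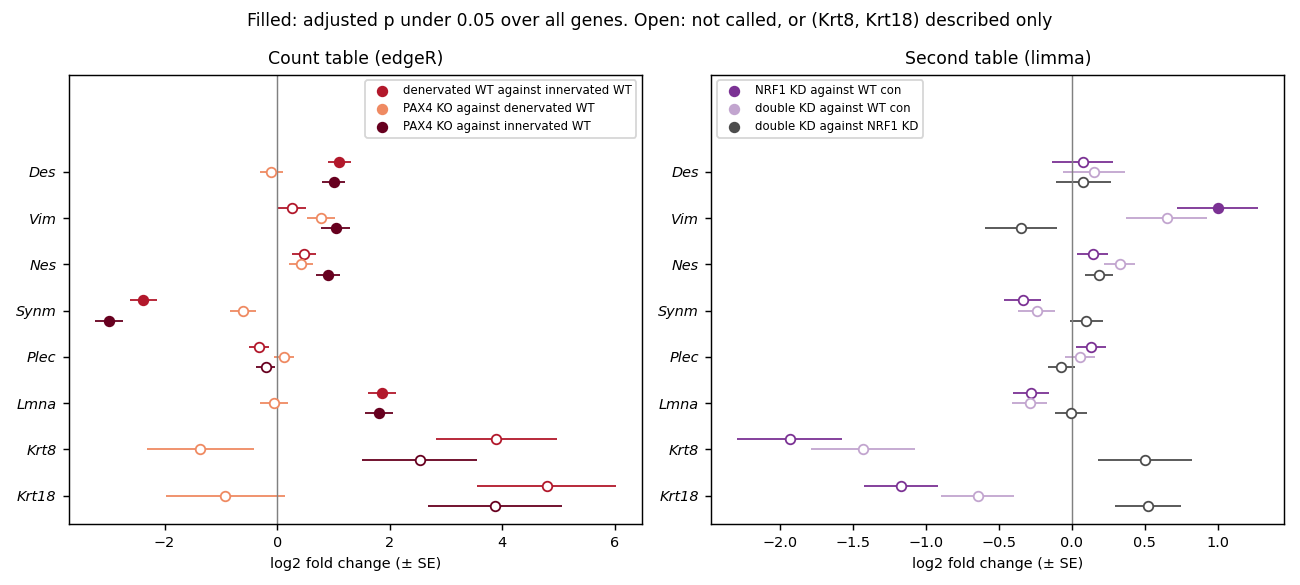
Log2 fold change with its SE for the 8 genes in 3 comparisons of the count table (left, edgeR) and 3 of the second table (right, limma), on axes of different width. Filled points passed an adjusted p of 0.05, open points did not or, for Krt8 and Krt18, carry no test.

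Related genes were read from 5 lists, 99 distinct genes in all, of which 80 were tested in the count table and 79 in the second. In denervated against innervated WT muscle 16 of the 80 were called higher and 15 lower, 38.8% of them, beside 32.3% of all genes. Their median log2 fold change was 0.031, beside 0.019 over all genes.

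Of 10 other intermediate filament genes tested, 4 rose and 0 fell (edgeR). Krt80 rose by a log2 fold change of 2.03 ± 0.28 to a mean of 13.0 CPM in denervated WT, against 3.20 CPM in innervated WT muscle (adjusted p = 0.000748). Krt7 rose by 2.38 ± 0.46 but only to 0.38 CPM (adjusted p = 0.00376). Of the other 2, Sync (syncoilin, a desmin-binding filament protein of muscle) was named after its values were seen, at 49.3 CPM in denervated WT and 27.1 CPM in innervated WT muscle (0.86 ± 0.19, adjusted p = 0.00758), and the other was Lmnb2.

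Among 11 plakins and desmosomal crosslinkers, 4 rose and 2 fell. Pkp2 (plakophilin) rose by 1.39 ± 0.22 (adjusted p = 0.00136) and Jup (plakoglobin) by 0.87 ± 0.20 (adjusted p = 0.00956), while Ppl (periplakin) fell by 1.86 on the log2 scale (adjusted p = 0.00117) and Dst (dystonin) by 0.53 (adjusted p = 0.0248). The call of Dst was lost without any 1 of the 6 libraries compared except innervated library 2. Among 24 partners of desmin at the Z-disc and costamere, 6 rose and 4 fell. The chaperone Cryab rose by 1.40 ± 0.29 (adjusted p = 0.00479) and Flnc, filamin C, by 1.36 ± 0.28 (adjusted p = 0.00504), while the Z-disc protein Myoz1 fell by 1.79 (adjusted p = 6.86e-05) and Tln2, talin, by 0.70 (adjusted p = 0.00472).

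Of 17 genes of desmin turnover, 2 rose and 2 fell, and all 4 were calpain genes, proteases or their regulatory subunit. Capn2 (0.69 ± 0.11, adjusted p = 0.00134) and Capns1 (0.47 ± 0.13, adjusted p = 0.021) rose, and Capn3 (-0.99 ± 0.19, adjusted p = 0.00355) and Capn1 (-0.54 ± 0.12, adjusted p = 0.00849) fell. With DESeq2 the count of called turnover genes was 7, and without denervated library 1 it was 8. The call of Capns1 was lost without innervated library 1 or 3 or denervated library 2 or 3. The count of called crosslinkers was 3 without innervated library 1. Of 20 genes of the nuclear lamina and of the LINC complex that ties nuclei to the cytoskeleton, 1 rose and 7 fell. Sun2, the inner-membrane part of that bridge, fell by 1.74 (adjusted p = 6.86e-05) and Narf by 0.80 (adjusted p = 0.000748), beside the higher Lmna.

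In PAX4 KO against denervated WT muscle, edgeR called 0 of these 80 genes. At an unadjusted p under 0.05 there were 5, or 6.25%, beside 12.9% of all genes, and DESeq2 called 1. In PAX4 KO against innervated WT muscle 14 were higher and 17 lower, 38.8% of the 80, beside 40.0% of all genes. Krt80 was higher there by 2.41 ± 0.29 (adjusted p = 0.00026) and Cryab by 1.69 ± 0.29 (adjusted p = 0.00156). Myoz1 was lower by a log2 fold change of -2.28 ± 0.14 (adjusted p = 2.04e-05) and Sun2 by one of -1.56 ± 0.14 (adjusted p = 6.92e-05).

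In NRF1 KD against WT con 1 of 79 was higher and 5 lower (limma), 7.59% of them, beside 11.3% of all genes. The kinase Rock1 was higher (0.41 ± 0.11, adjusted p = 0.0419). Sync (-0.54 ± 0.16, adjusted p = 0.0488), Jup (-0.51 ± 0.13, adjusted p = 0.0304), the ubiquitin ligase Trim63 (-0.77 ± 0.16, adjusted p = 0.0138) and the p97 cofactor Ufd1 (-0.46 ± 0.10, adjusted p = 0.0158) were lower. Without NRF1 KD library 3 limma called 0 of the 79. The calls of Sync and Jup were also lost without NRF1 KD library 1 or either WT con library, that of Rock1 without any 1 of the 5 libraries, that of Ufd1 without WT con library 2 and that of Trim63 without WT con library 3. The replicate block lost the calls of Sync, Jup, Rock1 and Ufd1. Sync was also not called with edgeR on recovered reads, a pseudocount of 0.1 or only the groups compared. In double KD against WT con 1 of 79 was higher and 3 lower, 5.06% of them, beside 4.08% of all genes. The small heat shock gene Hspb1 was higher (0.71 ± 0.16, adjusted p = 0.0376), and Trim63 (-1.05 ± 0.16, adjusted p = 0.00952) and Fbxo32, another atrophy ligase gene (-0.61 ± 0.12, adjusted p = 0.024), were lower. The call of Hspb1 was lost without double KD library 2 or 3 or either WT con library, and that of Fbxo32 without double KD library 2 or WT con library 2. Hspb1 and Fbxo32 were also not called with only the groups compared or with the replicate block, while Trim63 was called under all 11 alternatives. In double KD against NRF1 KD limma called 0 of 79, with 6 at an unadjusted p under 0.05 (7.59%, beside 11.2% of all genes), and edgeR called 0.

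The genes most like 3 of the members were taken by Pearson's r of log2(CPM + 1) over the 9 libraries, among 9709 genes of at least 5 CPM on average, leaving out the 8 members and provisional symbols. These libraries form innervated and denervated clusters, so a high r mostly follows that split, and values are a description. Nearest to Krt18 were Eid2 (r = 0.994), Emb (0.988) and Chrng (0.987). Nearest to Krt8 were Cox17 (0.989), Aif1l (0.988) and Eid2 (0.986), and nearest to Des were Mvp (0.991), Tuba4a (0.990) and Grina (0.990). Among the members, the r was 0.991 between Des and Lmna and 0.987 between Krt8 and Krt18, as high as these. Over the 8 libraries of the second table, all denervated, it was 0.128 between Des and Lmna but 0.971 between Krt8 and Krt18. Both keratins were higher in both WT con libraries than in any knockdown library, and highest in WT con library 3. Their r may therefore follow that split and that library. Over the same 8 libraries the r of Krt18 was 0.61 with Eid2, 0.0011 with Emb and 0.059 with Chrng. The r of Krt8 was 0.67 with Eid2 and 0.55 with Aif1l, and that of Des was -0.21 with Mvp, -0.094 with Tuba4a and 0.021 with Grina.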

How the data were processed

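Per the labels' protocols, RNA was taken with TRIzol and libraries were made with a SMARTER mRNA-Seq kit. The submitters' processing notes name builds GRCm38 and mm10. Aligner, counter and strandedness: not given in the sources used here. Unscaled counts of reads per gene were deposited for 9 libraries. For 8 further libraries they deposited log2 values that are variance-stabilised, with a mean signal per gene. The deposited tables also give the authors' log2 fold changes and p-values, and a few are quoted as such. The log2 values were inverted to normalised counts, whose means differed from the deposited signal by at most 3.34e-07%, and 100% of the recovered reads were within 0.05 of a whole number. Of 23 labelled samples, 17 libraries were used, and the other 6 were not analysed here.

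Columns were tied to groups by their names. In the count table, libraries are numbered in ascending order of the numbers in the column names, and denervated and innervated WT columns share such numbers. Deviations from the group means correlated at 0.203, 0.0492 and 0.318 between same-numbered libraries, against -0.252 to 0.0190 between libraries of unlike number. Since 1 same-numbered value was under 0.1, the main fit did not treat them as pairs. Every same-numbered value was nevertheless above those of unlike number, so pairing is not excluded. A replicate block was fitted as an alternative. No 2 libraries of a group agreed within sampling noise.

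Counts were tested in edgeR 4.0.16 (quasi-likelihood, TMM, filterByExpr, 3 groups in 1 fit) under R 4.3.3. Normalised counts were tested in limma 3.58.1 (trend) on log2 of the value plus 1. Benjamini-Hochberg adjusted p under 0.05 over all genes was called. The second test had been planned for these values, and edgeR on recovered reads was added after the data were seen. Both were checked on simulated data. The members and all gene lists were chosen with earlier results of these data known. Of each related list up to 2 called genes in each direction were named, by smallest adjusted p. Lengths are of the longest APPRIS principal transcript (GENCODE, GRCm38). RefSeq promoters matched 7 of the 8 members. Alternatives were other size factors, DESeq2 1.42.0, filters, pseudocounts of 0.1 and 5, fewer groups, a block and each library left out.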

Additional observations from a re-analysis of the deposited data

How the results depend on the processing

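Of 408 values of the 6 tested genes under the alternatives, 389 kept their direction and their side of the threshold. Of 136 of Krt8 and Krt18, which have no threshold, 0 changed sign, and 8 moved by more than the spread between libraries, all with innervated library 2 left out. With the replicate block denervated against innervated WT was 5.34 for Krt8 and 6.61 for Krt18. The calls of Des, Synm and Lmna in denervated WT, and of 5 genes in PAX4 KO, against innervated WT were kept in all of them. The call of Vim in NRF1 KD was lost with the replicate block (1.03, limma adjusted p = 0.125) and without NRF1 KD library 2 or 3 or WT con library 2. Nes in denervated against innervated WT was gained with no filter on low counts (0.48, edgeR adjusted p = 0.0421). Directions turned with 1 library left out, all for genes not called. Vim ran over -0.029 to 0.51 in denervated against innervated WT, Lmna over -0.23 to 0.19, Plec over -0.083 to 0.26 and Des over -0.26 to 0.068 in PAX4 KO against denervated WT, Des over -0.048 to 0.14 in NRF1 KD, Plec over -0.021 to 0.13 in double KD against WT con, and Lmna over -0.072 to 0.096 and Synm over -0.013 to 0.20 in double KD against NRF1 KD. The cause was not tested.

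Counts over all genes moved more. PAX4 KO against denervated WT had 3 higher and 0 lower, 140 and 73 with DESeq2, 348 and 108 with no filter (1 member) and 105 and 64 without both doubted libraries (1 member, chosen after seeing the data). NRF1 KD against WT con had 1184 and 581, double KD against WT con 373 and 265 (146 and 85 with only the groups compared), and double KD against NRF1 KD 12 and 9 (45 and 34 with only the groups compared, 1 and 0 with a pseudocount of 0.1 or a mean of at least 50). With 1 library left out, higher and lower counts ran over 1741 to 2692 and 1768 to 2591 in denervated WT against innervated WT (3 to 4 members), 1 to 16 and 0 to 10 in PAX4 KO against denervated WT, 415 to 1190 and 126 to 421 in NRF1 KD against WT con (0 to 1 members), 46 to 474 and 40 to 248 in double KD against WT con and 1 to 69 and 0 to 124 in double KD against NRF1 KD. The second table's replicate numbers did not pair its libraries. With the replicate block denervated against innervated WT had 2538 higher and 2496 lower, NRF1 KD 513 and 117 (0 members), double KD against WT con 80 and 56, and double KD against NRF1 KD 7 and 2. PAX4 KO libraries share no column number with WT, so no block was fitted there. Of 340 counts of the related lists, 301 stayed within 1.5 times. Depth limits the keratins in innervated libraries 1 and 3, at 3 to 14 reads.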
